A study of Homo sapiens with 24 samples.

Results

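Peaks of open chromatin on chromosome 6 outside the major histocompatibility complex (MHC) were examined in 24 FAIRE-seq libraries. Members were all peaks with chromosome 6 (hg19) as their chromosome that did not overlap chr6:28477797-33448354, and a split at position 60000000 divided them into a short-arm part, 6p, and a long-arm part, 6q. Of the 4683186 peaks in the 24 lists, 256932 were members (5.49%), 99410 of them on 6p and 157522 on 6q. The chromosome was chosen by the share of the top-ranked peaks in windows of the genome, where windows of chromosome 6 were among those with the largest rise in RES-A over LNCaP. All values that set RES-A against LNCaP are therefore given as a description, with no test, whereas the treatments did not enter the choice and were tested.

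FAIRE-seq enriches DNA free of nucleosomes by phenol extraction of cross-linked, sheared chromatin. It was performed on LNCaP, a human prostate cancer cell line that responds to androgen, called parental here, and on RES-A, a single line derived from it by long culture with enzalutamide (ENZ), a drug used to treat prostate cancer. Before treatment, all cells spent 3 days in serum stripped of steroids (5%). During that time the RES-A cells, unlike LNCaP, were kept in 10 µM ENZ, so subline and preculture cannot be told apart. The 18-h treatments were DMSO (the vehicle), the androgen dihydrotestosterone (DHT, 10 nM), ENZ (10 µM) and the combination DHT+ENZ. There were 3 libraries in each of the 8 groups, which the study calls biological replicates.

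The libraries differed in depth. The lists held 73254 to 275774 peaks, and the genome-wide background recovered from them, a measure of relative depth in reads per base, ran from 0.406 to 5.99. LNCaP ENZ replicate 1 had the lowest background, and only LNCaP DHT replicate 1, at 0.739, was also under 1. To limit the effect of depth, most values are shares of a library's own peaks.

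Chromosome 6 carries the MHC on its short arm, a dense cluster of immune genes that was not part of the set. The short arm also holds FKBP5, which encodes a co-chaperone, and the long arm holds ESR1, which encodes an estrogen receptor. Open sites are mostly promoters and enhancers, and the share of open sites on a chromosome depends on its genes and on how densely reads cover it. The lists were made on hg19, for which no annotation was used here, so bins and regions are given by position and no gene was assigned to them.

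RES-A libraries had a larger share of their peaks on chromosome 6 than parental libraries, on both arms and under all 4 treatments. Over the 12 parental libraries the share of chromosome 6 had a lowest value of 4.33%, a median of 4.60% and a highest value of 4.93%. Over the 12 RES-A libraries these values were 6.20%, 6.31% and 6.50%. The lowest RES-A library thus stood above the highest parental library, and the means were 6.32% ± 0.0786 and 4.63% ± 0.189 (SD, n = 12 each), a ratio of 1.37.

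The difference was larger on the short arm. On 6p the parental libraries ran from 1.56% over a median of 1.68% to 1.80%, and the RES-A libraries from 2.50% over a median of 2.56% to 2.63%. The 6p means were 1.69% ± 0.0769 and 2.56% ± 0.0324 (SD, n = 12 each), a ratio of 1.51. On 6q the parental libraries ran from 2.66% over 2.95% to 3.14% and the RES-A libraries from 3.68% over 3.75% to 3.87%. The 6q means were 2.94% ± 0.145 and 3.76% ± 0.0518 (SD, n = 12 each), a ratio of 1.28. Neither arm showed any overlap between the sublines. Of the peaks on chromosome 6, 34.6% to 38.5% lay on 6p in parental libraries and 40.1% to 40.8% in RES-A libraries.

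**Figure D1:**
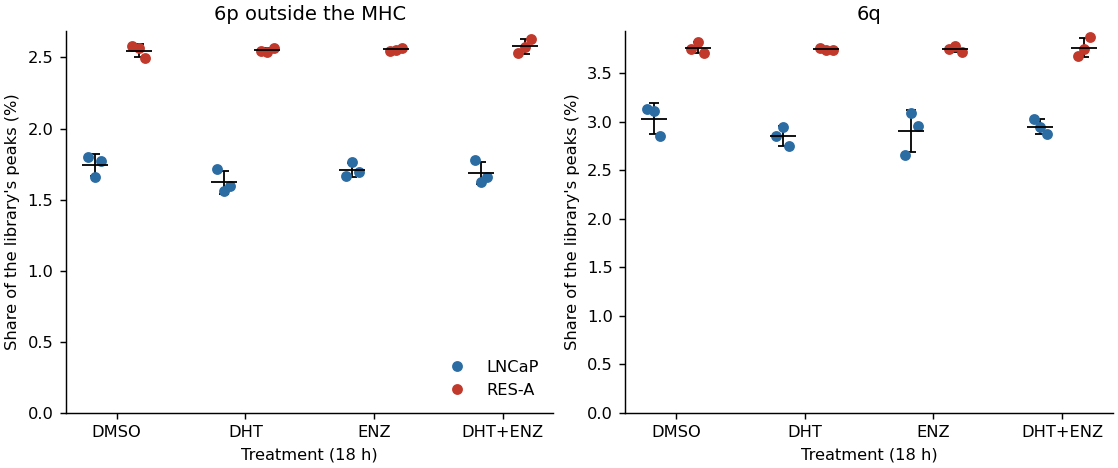
Share of each library's peaks on 6p outside the MHC (left) and on 6q (right), in percent, by treatment. Points are libraries (blue, LNCaP; red, RES-A), black bars are the mean and SD of 3 libraries, and the RES-A points stand above all LNCaP points in both panels.

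Compared with the other autosomes, chromosome 6 had the highest ratio of RES-A over LNCaP, 1.37 among 22. Chromosome 21 followed with 1.25, the lowest ratio was 0.778, and the median was 0.981. The MHC interval that was left out had a share of 0.179% to 0.260% in parental and 0.245% to 0.282% in RES-A libraries, with overlapping ranges and a ratio of 1.23. Among peaks in the 50000 top-ranked of each library, the share of chromosome 6 was 3.80% to 4.38% in parental and 5.97% to 6.22% in RES-A libraries, a ratio of 1.46.

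To locate the difference, the chromosome was divided into 2-Mb bins, and the 83 of 85 bins with a mean of 20 or more peaks in a library were used. In 59 of the 83 bins all 12 RES-A libraries had a higher share than all 12 parental libraries, and in 4 bins all were lower. Across the genome, 15.8% of 1462 bins were higher and 16.6% lower by the same criterion. Since this contrast chose the chromosome, nothing is read from that excess. On 6p, 26 of 28 bins were higher and 0 lower, and on 6q 33 of 55 were higher and 4 lower. The median log2 ratio of RES-A over LNCaP was 0.57 over the bins of 6p and 0.33 over those of 6q, against 0.03 over all 1462 bins.

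The 6p bins all lay on the same side, with log2 ratios from 0.18 to 1.123, whereas those of 6q ran from -1.52 to 1.59. The 5 highest bins all lay on 6q. They were 90 to 92 Mb (log2 ratio 1.59), 82 to 84 Mb (1.475), 84 to 86 Mb (1.45), 88 to 90 Mb (1.36) and 158 to 160 Mb (1.30). In the bin at 90 to 92 Mb the parental libraries ran from 0.00773% over 0.0158% to 0.0233% of their peaks, and the RES-A libraries from 0.0406% over 0.0464% to 0.0541%. These shares corresponded to a mean of 31.8 peaks per parental library and 90.9 per RES-A library.

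**Figure D2:**
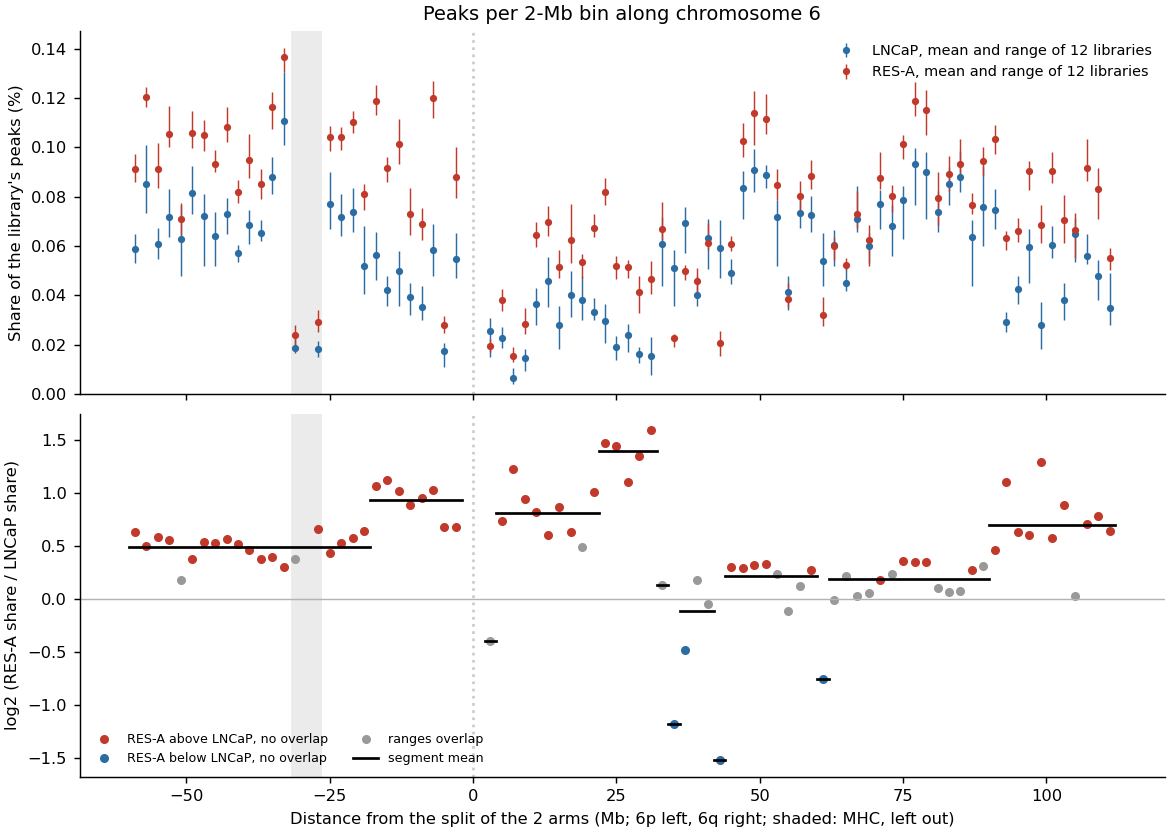
Share of peaks per 2-Mb bin (top, mean and range of 12 libraries) and log2 ratio of RES-A over LNCaP shares (bottom) against the distance from the split of the arms in Mb. Black lines are segment means, which step up 18 Mb left of the split, peak between 22 and 32 Mb right of it and lie below 0 at 2 to 4, 34 to 44 and 60 to 62 Mb right of it; 59 bins are red (higher, no overlap) and 4 blue (lower).

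A least-squares segmentation of the log2 ratios placed 12 change positions along the chromosome. From the short-arm end to 42 Mb the ratio formed a single segment of 20 bins. Their log2 ratios had a mean of 0.49 and ran from 0.18 to 0.67. At 42 Mb the ratio stepped up to a mean of 0.93 over the 8 bins to 58 Mb. The bins on either side of that step had log2 ratios of 0.65 (40 to 42 Mb) and 1.07 (42 to 44 Mb). In the left bin the parental libraries ran from 0.0406% over 0.0495% to 0.0683% and the RES-A libraries from 0.0745% over 0.0822% to 0.0852%. In the right bin they ran from 0.0461% over 0.0563% to 0.0655% and from 0.113% over 0.118% to 0.125%. Across this border the parental mean thus moved from 0.0517% to 0.0565% and the RES-A mean from 0.0810% to 0.119%.

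Around the split of the arms, few peaks were called. The bin just left of it, 58 to 60 Mb, held a mean of 16.1 peaks per library with a ratio of 1.35, and the bin just right of it, 60 to 62 Mb, held 6.71 with a ratio of 0.890. Both were under the minimum of 20 peaks. The bin at 62 to 64 Mb stood alone at a log2 ratio of -0.39, with overlapping ranges. At the other border of the rule, the parts of the bins at 28 to 30 and 32 to 34 Mb that lay outside the MHC had ratios of 1.30, with overlap, and 1.59, without overlap.

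On the proximal long arm the ratio was high again. From 64 to 82 Mb the mean bin log2 ratio was 0.82 over 9 bins, and from 82 to 92 Mb it was 1.40 over 5 bins, the highest of the 13 segments. In the segment at 82 to 92 Mb the parental libraries ran from 0.0863% over 0.105% to 0.125% of their peaks and the RES-A libraries from 0.260% over 0.274% to 0.280%. That was 20.7 peaks per Mb in a parental library and 53.5 in a RES-A library on average. The parental density was the lowest of all segments, as the segment at 62 to 64 Mb held 25.8 and all others at least 29.0 peaks per Mb.

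At 92 Mb the ratio fell within a single bin border, from a log2 ratio of 1.59 at 90 to 92 Mb to 0.13 at 92 to 94 Mb. Across this border the parental mean went from 0.0154% to 0.0609%, whereas the RES-A mean went from 0.0464% to 0.0668%. In the bin at 92 to 94 Mb the sublines overlapped, with parental libraries between 0.0437% and 0.0717% and RES-A libraries between 0.0624% and 0.0778%. The next border, at 94 Mb, brought a further drop of the log2 ratio to -1.17.

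The 4 bins in which every RES-A library was lower than every parental library all lay on 6q, between 94 and 122 Mb. The lowest was 102 to 104 Mb, where parental libraries ran from 0.0471% over 0.0601% to 0.0705% and RES-A libraries from 0.0155% over 0.0206% to 0.0255%, a log2 ratio of -1.52. This bin held 117.2 peaks in a parental library and 40.7 in a RES-A library on average. In the bin at 94 to 96 Mb parental libraries ran from 0.0355% over 0.0529% to 0.0584% and RES-A libraries from 0.0190% over 0.0231% to 0.0244%. The other two were 120 to 122 Mb, with a log2 ratio of -0.75, and 96 to 98 Mb, with -0.48. Segment means stayed below 0 from 94 to 104 Mb, with -0.11 over the 3 bins from 96 to 102 Mb between the 2 lowest. The number of lower bins was 0 with the 50000 top-ranked peaks, 7 with 1-Mb bins and 1 with 4-Mb bins. The bins at 100 to 102 Mb and 104 to 106 Mb, which flank the lowest, had log2 ratios of -0.04 and 0.31.

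Beyond 104 Mb the ratio was mostly small and was higher again towards the end of the long arm. The mean bin log2 ratio was 0.23 from 104 to 120 Mb and 0.19 from 122 to 150 Mb, where 5 of 8 and 5 of 14 bins were higher without overlap. From 150 Mb to the end it was 0.71, with 10 of 11 bins higher, among them the bin at 158 to 160 Mb. In that bin parental libraries ran from 0.0181% over 0.0297% to 0.0375% and RES-A libraries from 0.0613% over 0.0693% to 0.0765%.

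Most of the change positions were also placed when the 3 RES-A and 3 parental libraries of each treatment were segmented alone. These are subsets of the libraries that gave the 12 positions, so this is not an independent repeat. The positions at 42, 92, 94, 102 and 104 Mb were found at the same bin border in 4 of 4 treatments. Those at 64, 82, 96 and 150 Mb were found within 1 bin in 4 of 4. The exact border recurred in 3 of 4 at 64 and 82 Mb, in 2 at 96 Mb and in only 1 at 150 Mb. Between its flanking bins, the step at 150 Mb was also the smallest of the 12, from a log2 ratio of 0.32 to 0.47. The positions at 62, 120 and 122 Mb were found in 3 of 4. The exception was ENZ, where 54 to 66 Mb formed a single segment, the bin at 66 to 68 Mb alone was the highest (log2 ratio 1.63, against 1.35 at 82 to 92 Mb) and no step was placed between 104 and 148 Mb. The ratio of the segment at 82 to 92 Mb was 2.48 with DMSO, 2.96 with DHT, 2.55 with ENZ and 2.57 with DHT+ENZ, and that of the bin at 102 to 104 Mb was 0.320, 0.355, 0.335 and 0.389. The 12 positions depended on which peaks were used, as the 50000 top-ranked peaks, with 59 usable bins, gave 3, and a stricter penalty gave 8. The highest segment ended at 84 Mb with the top-ranked peaks, and at 92 Mb with 1-Mb or 4-Mb bins and with each library left out in turn.

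The local background was examined next. For each peak, the peak caller compares the pileup of reads at the summit with an expected level taken from the reads around it, and this level does not fall below a genome-wide value. The level was recovered from the pileup and the fold enrichment and divided by the library's genome-wide value. A peak at 1 on this scale lay in surroundings with no more reads than the genome as a whole.

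Taken over each arm, the local background was higher in RES-A. On 6p its median over peaks was 1 over 1.03 to 1.17 in parental libraries (lowest, median and highest library) and 1.29 over 1.41 to 1.47 in RES-A libraries. On 6q it was 1.05 over 1.10 to 1.17 and 1.24 over 1.31 to 1.38. The sublines overlapped on neither arm, and the log2 ratios of the means were 0.41 and 0.25. Not every bin followed the arms. Among the 5 bins with the highest share ratios, it was 1 in both sublines at 88 to 90, 90 to 92 and 158 to 160 Mb. At 82 to 84 and 84 to 86 Mb it was 1 in LNCaP and 1.42 and 1.13 in RES-A (means over libraries). Of the 6p peaks, 32.7% to 53.1% stood at the genome-wide background (within 0.1% of it) in parental libraries and 16.5% to 23.01% in RES-A libraries. For 6q the shares were 29.3% to 42.4% and 18.3% to 25.7%. On all other chromosomes together they were 21.4% to 31.8% and 26.5% to 32.4%, with overlapping ranges. The part of the background in the number of peaks called on chromosome 6 was not tested.

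**Figure D3:**
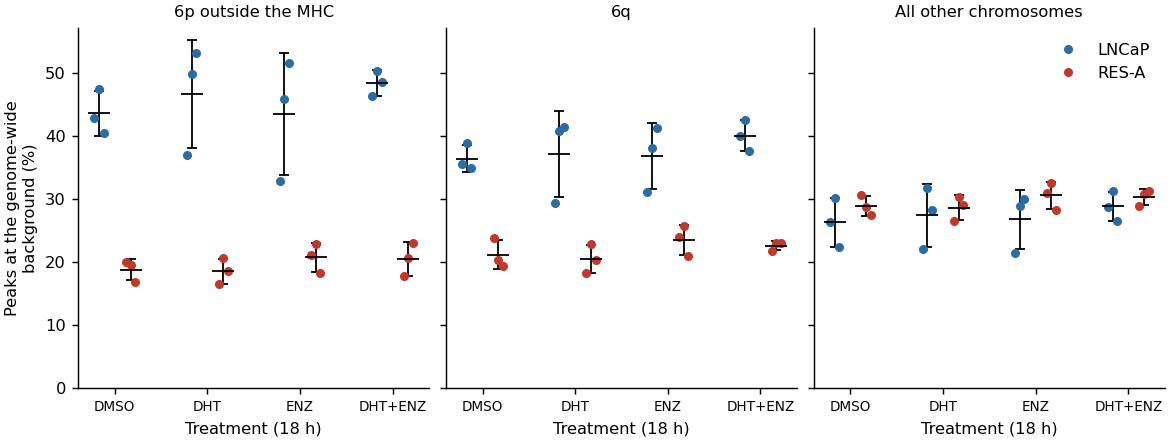
Percentage of peaks whose local background equalled the genome-wide background of the library, on 6p, on 6q and on all other chromosomes, by treatment. Points are libraries (blue, LNCaP; red, RES-A), black bars are the mean and SD of 3 libraries, and the sublines separate on both arms and overlap elsewhere.

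A second comparison used the same regions in every library. Of 118932 merged regions of top-ranked peaks, 29056 overlapped a peak in all 24 libraries, among them 503 on 6p and 657 on 6q. Background and pileup at each region were divided by the library's median over all 29056 regions. On 6p the median background was 0.791 over 0.816 to 0.833 in parental libraries and 1.14 over 1.17 to 1.19 in RES-A libraries, a log2 ratio of 0.52. On 6q it was 0.844 over 0.891 to 0.934 and 1.08 over 1.11 to 1.15, a log2 ratio of 0.32. Chromosome 6 thus lay below the regions of the genome as a whole in parental libraries and above them in RES-A libraries.

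The pileup at these regions, the height of the signal itself, followed the same order. On 6p it was 0.804 over 0.835 to 0.909 in parental and 1.13 over 1.16 to 1.17 in RES-A libraries, a log2 ratio of 0.45. On 6q it was 0.778 over 0.871 to 0.909 and 1.02 over 1.05 to 1.10, a log2 ratio of 0.28. The 1160 regions were those strong enough to be called everywhere and do not stand for all members. The background around the same regions was higher in RES-A as well, with log2 ratios of 0.52 on 6p and 0.32 on 6q. Its part in the pileup was not tested, so the pileup is not read as openness alone. In bulk libraries, a site open in more cells and a site more open in each cell cannot be told apart.

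Along the chromosome, 73 bins held at least 5 such regions. The background was higher in RES-A in 71 of them and the pileup in 68. Counted in either direction, the sublines did not overlap in 57 and 35 bins. No share over all bins of the genome is given beside these counts, so nothing is read from them. Segmented alone, the background had a mean log2 ratio of 0.41 up to 42 Mb and of 0.78 from 42 to 88 Mb, and the pileup of 0.39 and 0.73. Both thus changed at 42 Mb, where the share of peaks also changed. Later segments began at 92, 94, 96 and 154 Mb for the background and at 92 and 96 Mb for the pileup. Neither had a step at 62, 64, 82, 102, 104, 120, 122 or 150 Mb, where the share had one. Bins with fewer than 5 such regions did not enter, among them those at 62 to 64 and 102 to 104 Mb. From 82 to 92 Mb, the segment with the highest share ratio, those at 84 to 86, 88 to 90 and 90 to 92 Mb were also missing. From 64 to 82 Mb, those at 64 to 66, 66 to 68, 68 to 70 and 74 to 76 Mb were missing. The lack of a step at 62, 64, 82, 102 and 104 Mb is therefore not read as a difference from the share. In the segment at 42 to 58 Mb, 87 regions had a background of 0.678 to 0.740 in parental and 1.24 to 1.34 in RES-A libraries. Their pileup was 0.679 to 0.778 and 1.14 to 1.28.

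Of the 2 bins with a lower background in RES-A, that at 100 to 102 Mb had a log2 ratio of only -0.01 and overlapped. The bin at 94 to 96 Mb, with 6 regions, had a background of 1.09 to 1.40 in parental and 0.781 to 0.906 in RES-A libraries, a log2 ratio of -0.57. Its pileup was 0.778 to 1.05 and 0.431 to 0.729, a log2 ratio of -0.75, and neither measure overlapped. The bin at 102 to 104 Mb, with 4 regions and so not among the 73, also had a lower background (log2 ratio -0.39, no overlap). The bin at 120 to 122 Mb, in contrast, had fewer peaks in RES-A but log2 ratios of 0.00 for the background and 0.02 for the pileup over its 6 regions, with overlap in both.

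**Figure D4:**
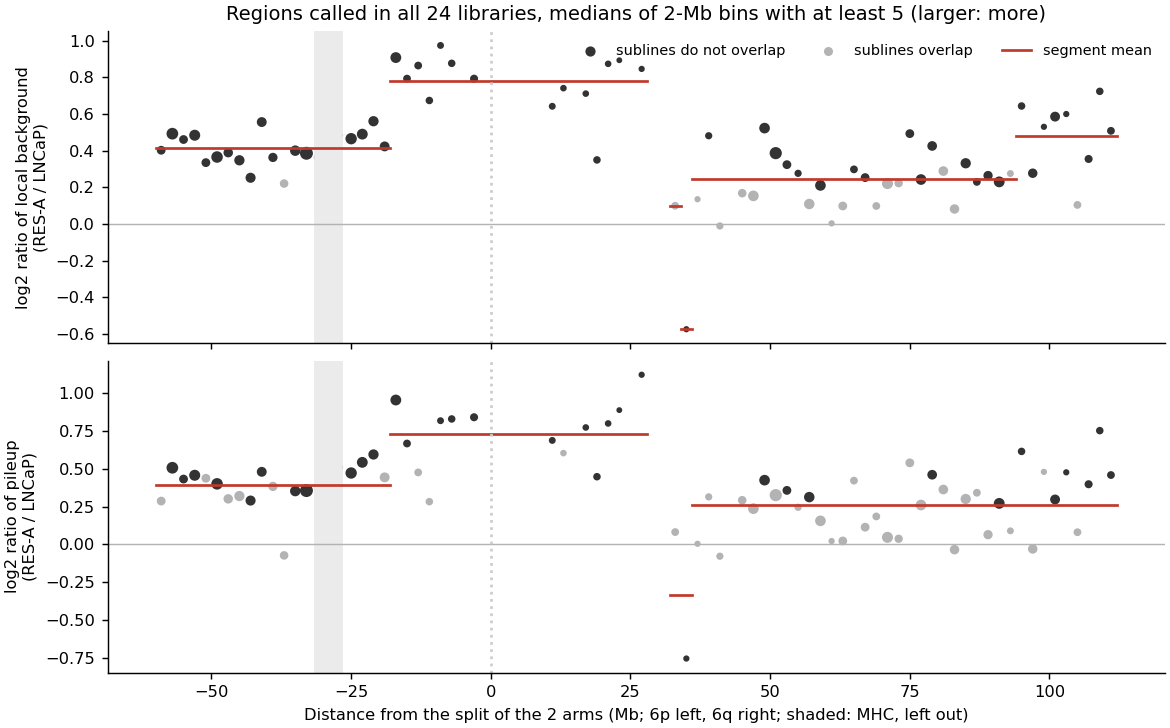
Log2 ratio of RES-A over LNCaP for local background (top) and pileup (bottom) at regions called in all 24 libraries, as medians of 2-Mb bins with at least 5 regions, against the distance from the split of the arms. Red lines are segment means, which rise 18 Mb left of the split and fall at 32 to 36 Mb right of it; dark points mark bins whose libraries do not overlap between the sublines.

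Over all members, the pileup differed less. The median pileup of 6p peaks, divided by the list's own median, was 0.857 over 0.957 to 1.04 in parental and 1 over 1.05 to 1.11 in RES-A libraries, and on 6q it was 0.857 over 0.953 to 1 and 0.909 over 0.950 to 1. The ranges overlapped on both arms, with log2 ratios of 0.15 and 0.03. Each library's list has its own members here, so weak peaks called in RES-A alone enter its median. Member peaks had a median length of 148 to 252 bp in parental and 216 to 255 bp in RES-A libraries. Their median fold enrichment was 3.42 to 4.74 and 3.57 to 4.98, and both measures overlapped.

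Regions called in a single subline were counted among the 6360 merged regions of top-ranked peaks on chromosome 6. A top-ranked peak in all 12 RES-A and 0 parental libraries was found at 152 of them (75 on 6p and 77 on 6q), and the reverse at 10 (1 on 6p and 9 on 6q). Across the genome these counts were 1692 and 519 of 118932 regions, or 1.42% and 0.436%. On chromosome 6 they were 2.39% and 0.157% of the regions. RES-A regions were 30 of the 629 merged regions at 42 to 58 Mb (4.77%) and 11 of the 209 at 82 to 92 Mb (5.26%). They were 44 of 1889 up to 42 Mb (2.33%) and 28 of 807 from 150 Mb on (3.47%). The bins at 94 to 96 Mb and 120 to 122 Mb held 2 LNCaP regions each. The LNCaP count was 17 without LNCaP ENZ replicate 1, the shallowest library, 6 when any peak counted, and 0 with the 25000 top-ranked peaks or with overlap of at least 50% of the region. RES-A regions numbered 72 with the 25000 top-ranked peaks.

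The RES-A region with the highest mean rank was chr6:47408243-47408930, of 688 bp, in the segment where the ratio was raised. Its peaks had a fold enrichment of 14.1 over 15.6 to 18.0 and a pileup of 78 over 118.5 to 184 in the 12 RES-A libraries. In LNCaP it had a peak of lower rank in 8 of 12 libraries, with fold enrichments of 2.58 to 4.80. The regions chr6:36881890-36882418 and chr6:52211177-52211702 followed, with median fold enrichments of 14.3 and 15.9 in RES-A and lower-ranked peaks in 3 and 7 parental libraries. Of the 152 regions, 14 had no peak of any rank in any parental library.

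The LNCaP regions were less one-sided. The first, chr6:95272342-95273125, had a fold enrichment of 4.79 over 8.30 to 10.6 in parental libraries and lay in the bin at 94 to 96 Mb. It had a lower-ranked peak in all 12 RES-A libraries, with fold enrichments of 3.83 over 4.92 to 7.03. The regions chr6:26216808-26217607 and chr6:121984369-121984880 had lower-ranked peaks in 9 and 11 RES-A libraries. All of the 10 regions had a peak of some rank in at least 1 RES-A library.

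The treatments were then compared within each subline, to ask whether DHT or ENZ moved the share of chromosome 6. In LNCaP the share of chromosome 6 was 4.56% ± 0.148 with DHT and 4.69% ± 0.213 without (SD, n = 6 each). The difference of -0.137 percentage points was within the spread (exact permutation test within ENZ strata, two-sided, p = 0.245). It ran from -0.207 to -0.0762 with a library left out and was 0.0517 with the 50000 top-ranked peaks. On 6p it was -0.0709 percentage points (exact permutation p = 0.135), the smallest p of 12 such tests, and on 6q -0.0659 (exact permutation p = 0.475). ENZ moved the 3 shares in LNCaP by -0.00166, 0.0154 and -0.0171 percentage points for chromosome 6, 6p and 6q. In RES-A, DHT moved them by 0.0122, 0.0125 and -0.000277 and ENZ by 0.0219, 0.0181 and 0.00384. All 12 tests had an adjusted p of 1 by the Benjamini-Hochberg method, where 0.005 was the smallest unadjusted p that 400 relabellings allow. The difference of the DHT effects between the sublines was 0.0834 percentage points on 6p (permutation p = 0.0961, adjusted p = 0.577), the smallest p of 6 such comparisons.

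Single bins showed few responses. The limma effect of DHT was the mean of 2 log2 differences, DHT minus DMSO and DHT+ENZ minus ENZ. That of ENZ was likewise the mean over DHT absent and DHT present. With limma on log2 shares of all 1462 bins, 2 of the 83 bins of chromosome 6 fell with DHT in LNCaP, against 0.41% of bins genome-wide, and 0 rose (0% genome-wide). At an unadjusted p under 0.05, 18 of the 83 bins were lower and 0 higher, against 7.87% and 5.33% genome-wide. No bin of the genome passed for DHT in RES-A, for ENZ in either subline or for the difference of either effect between the sublines (0% in each direction with limma). At an unadjusted p under 0.05, chromosome 6 had 1 higher and 1 lower bin for DHT in RES-A, against 1.09% and 0.889% of bins genome-wide. For ENZ in LNCaP 2 were higher and 0 lower (1.64% and 0.821% genome-wide), and for ENZ in RES-A 0 in both directions (0.616% and 0.342%). For the difference between the sublines 10 were higher and 0 lower for DHT (3.76% and 2.19%) and 0 in both directions for ENZ (0.616% and 0.479%).

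The bin with the larger response, 82 to 84 Mb, is also the first of the segment with the highest ratio. Its share was 0.0334%, 0.0339% and 0.0332% in the 3 LNCaP libraries with DMSO and 0.0207%, 0.0279% and 0.0222% in those with DHT. With ENZ it was 0.0259%, 0.0367% and 0.0335%, and with DHT+ENZ 0.0289%, 0.0301% and 0.0277%. All libraries with DHT were below all with DMSO, whereas they overlapped those with ENZ and those with DHT+ENZ, and these treatments also overlapped each other. The log2 difference for DHT, averaged over ENZ absent and present, was -0.33 ± 0.071 (SE, limma, adjusted p = 0.0337). In RES-A the 12 libraries ran from 0.0765% over 0.0820% to 0.0876%, and the log2 difference was -0.01 (limma, adjusted p = 0.9996). The difference between the sublines was 0.31 ± 0.10 (SE, limma, adjusted p = 0.805) and did not pass.

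The bin at 156 to 158 Mb lies in the raised segment at the end of the long arm. Its share was 0.0668%, 0.0660% and 0.0657% in LNCaP with DMSO and 0.0450%, 0.0533% and 0.0523% with DHT. With ENZ it was 0.0614%, 0.0586% and 0.0615%, and with DHT+ENZ 0.0617%, 0.0578% and 0.0645%. Here the libraries with DHT alone lay below all other LNCaP libraries, and those with DHT+ENZ overlapped those with ENZ. With ENZ present the LNCaP mean did not fall with DHT, at 0.0605% with ENZ and 0.0614% with DHT+ENZ. The log2 difference for DHT, averaged over ENZ absent and present, was -0.19 ± 0.042 in LNCaP (SE, limma, adjusted p = 0.0337). In RES-A it was -0.05 (limma, adjusted p = 0.9996). The difference between the sublines was 0.14 ± 0.060 (SE, limma, adjusted p = 0.805). In RES-A, too, the libraries with DHT alone, at 0.0828% to 0.0872%, lay below all others of the subline. Those with DMSO ran from 0.0910% to 0.0939%, those with ENZ from 0.0907% to 0.0933% and those with DHT+ENZ from 0.0913% to 0.0946%. The RES-A value averaged over ENZ thus does not show that DHT alone left this bin unchanged.

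**Figure D5:**
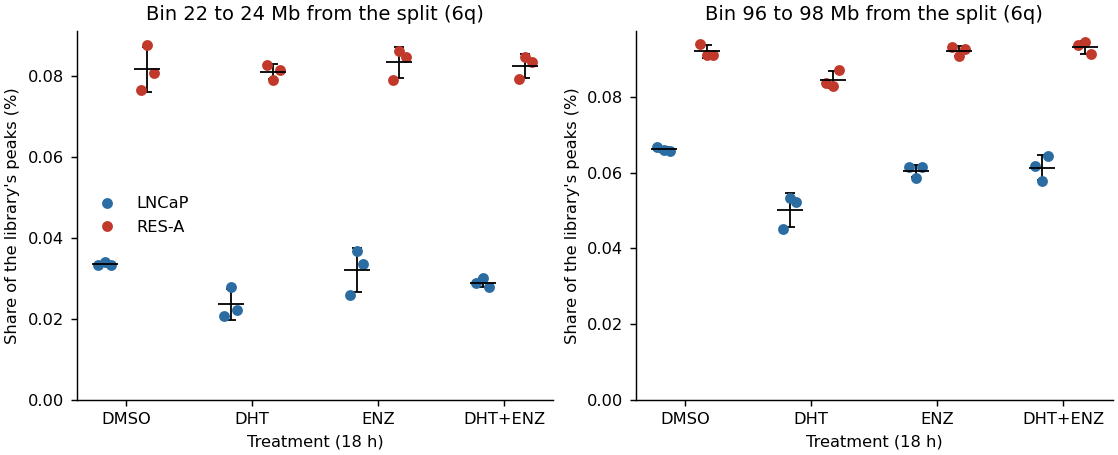
Share of each library's peaks in the 2 bins of chromosome 6 that fell with DHT in LNCaP, by treatment, with the bins named by their distance from the split of the arms. Points are libraries (blue, LNCaP; red, RES-A), black bars are the mean and SD of 3 libraries, and in both panels the LNCaP libraries with DHT lie below those with DMSO, and RES-A lies above LNCaP.

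Both calls stood close to the threshold. When single libraries were left out in turn, both bins passed without any of 9 of them. Without LNCaP DHT replicate 3, LNCaP DHT+ENZ replicate 3 or LNCaP ENZ replicate 2 only the bin at 156 to 158 Mb passed, and without LNCaP ENZ replicate 1 only that at 82 to 84 Mb. Neither passed without any of the other 11. Those were LNCaP DHT replicate 1, LNCaP DHT+ENZ replicates 1 and 2, LNCaP DMSO replicates 1 and 2, LNCaP ENZ replicate 3, RES-A DHT replicate 1, RES-A DHT+ENZ replicate 2, RES-A DMSO replicate 3 and RES-A ENZ replicates 1 and 3. The log2 difference kept its sign in all 31 alternatives, between -0.39 and -0.27 for the bin at 82 to 84 Mb and between -0.27 and -0.15 for the bin at 156 to 158 Mb. The adjusted p (limma) ran from 0.00130 to 0.162 and from 0.0142 to 0.171.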

How the data were processed

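FAIRE-seq was performed on LNCaP and RES-A cells with 50-bp single-end reads. The authors aligned reads to hg19 with BWA 0.7.8-r455, marked duplicates with Picard 1.118 and called peaks per library with MACS2 2.1.0. Options and a control library are not given in the sources used here. The deposited lists give pileup (a signal, not scaled between libraries), −log10 p-values and q-values, and fold enrichment, a ratio, as the authors' caller wrote them. The largest pileup of a list was 298 to 380. Peaks of q 0.05 or less and at least 100 bp were listed.

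Local background was computed as (pileup + 1) / fold − 1, which assumes that 1 was added to both. Its smallest value per list was the genome-wide background. Peaks were binned by midpoint. A bin was called where the 12 and 12 libraries did not overlap. Regions were the merged 50000 top-ranked peaks (by −log10 p) of each list, with overlaps of at least 1 bp. Segments minimised squared error with a penalty of 3. Treatment effects on arms were tested by exact permutation, and on bins by limma 3.58.1 (R 4.3.3), fitted on log2 shares of all 24 libraries after adding 0.5 peak, with Benjamini-Hochberg adjustment over all bins and a threshold of 0.05. Named bins were the 5 highest and 5 lowest ratios, those beside change positions and those past the threshold. Named regions were the 3 strongest per direction, at most 1 per bin.

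Replicate numbers come from the titles. The labels do not say that a number marks a shared culture or day, and they were not taken as pairs. Because 15 of 24 chromosomes had peaks beyond the GRCh38 ends, the GRCh38 annotation was not used. Read totals were not used, so intervals for counting error are not given. Python 3.11.15 was used. The members, bins and tests were chosen with earlier results of these data known.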

Additional observations from a re-analysis of the deposited data

How the results depend on the processing

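Of 252 alternative values other than those with a library left out, 207 stayed the same, 29 moved, 4 lost significance and 12 changed sign, and all of the last were treatment effects on arm shares that passed no test. With the 50000 top-ranked peaks, RES-A minus LNCaP was 1.92 percentage points for chromosome 6 and 1.04 for 6p, 35 bins were higher and 0 lower, 3 change positions were found, and the highest segment ended at 84 Mb. The log2 background ratio was then 0.54 on 6p and 0.38 on 6q, where the median over all bins itself shifted by 0.15, and the log2 pileup ratio on 6q was 0.14. With regions called in all 24 libraries the log2 background ratios were 0.52 and 0.32 and the log2 pileup ratios 0.45 and 0.28. With 1-Mb bins 97 bins were higher and 7 lower, and with 4-Mb bins 31 and 1, with 7 change positions. A penalty of 5 gave 8 change positions.

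Among treatment effects, the top-ranked peaks gave for DHT in LNCaP 0.0517, 0.0127 and 0.0390 percentage points (chromosome 6, 6p, 6q), for ENZ in LNCaP -0.006 on 6p, for DHT in RES-A -0.0243 on 6p and 0.0850 on 6q, and for ENZ in RES-A -0.04 on chromosome 6 and -0.0503 on 6q. ENZ in LNCaP gave 0.00102 for chromosome 6 with autosomal peaks, and 0.0928 for chromosome 6 and 0.0441 for 6q without the 2 libraries with a background under 1. ENZ in RES-A gave -0.00404 on 6q at a q threshold of 0.01. With single libraries left out, DHT in LNCaP lay between -0.207 and -0.0762, -0.0939 and -0.0551, and -0.126 and -0.0192. ENZ in LNCaP lay between -0.0624 and 0.0683, -0.00665 and 0.0384, and -0.0639 and 0.0426. DHT in RES-A lay between -0.0280 and 0.0471, -0.000705 and 0.0245, and -0.0273 and 0.0226, and ENZ in RES-A from -0.0182 to 0.0568 on chromosome 6 and from -0.0232 to 0.0267 on 6q.

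The bins lower with DHT in LNCaP numbered 2. With top-ranked peaks 1 bin was lower, which was neither of these 2, and 1 was higher. There was 1 lower bin at a q threshold of 0.01, 1 with 4-Mb bins and 0 to 2 with a library left out. Top-ranked peaks gave 1 higher bin for DHT in RES-A. With the replicate number as a block the count was 4 lower bins (14 over the genome, against 6 without it), and the arm tests passed in no case (smallest exact sign-flip p = 0.156). Deviations of same-numbered libraries from their group means correlated at a mean of 0.27 within LNCaP (15 of 18 pairs above 0.1) and -0.01 within RES-A (5 of 18), and those of different numbers at -0.13 and 0.01. RES-A regions numbered 72 with the 25000 top-ranked peaks. LNCaP regions numbered 0 there and with overlap of at least 50% of the region, 6 when any peak counted, and 10 to 17 with a library left out. Depth varied more among parental libraries, whose background ran from 0.406 to 5.99, than among RES-A libraries, from 1.81 to 4.48.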
